A study of Mus musculus with 29 samples.

Results

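The genes described here are 41 genes that a cell uses late in the division cycle, in the G2 phase and in mitosis. They form a named list, which was matched to the Ensembl identifiers of the count files by mouse symbol, and kept where at least 10 reads were counted in at least 3 libraries. All 41 of the 41 passed that rule, out of 55414 gene identifiers in the files, and all 41 were among the 14375 genes tested. The rule used no difference between groups.

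The study sequenced polyA RNA from splenic CD4+ T cells of C57BL/6-Foxp3tm1Flv/J mice, a reporter strain in which red fluorescent protein (RFP) is made by cells that express Foxp3, the defining transcription factor of regulatory T cells. There were 29 libraries in 10 groups. At 72 h, RFP+ cells (Treg) cultured with TGF-β were sampled with lactic acid and without it. RFP− cells (Tcon) were sampled at 72 h, and likewise at 24 h, under 4 conditions, namely TGF-β with lactic acid, TGF-β alone, lactic acid alone and neither agent. Each group had 3 libraries except the 72 h Tcon group with neither agent, which had 2 (replicates 1 and 2). All cells received antibodies to CD3 (1.25 µg/ml) and CD28 (2.5 µg/ml) and IL-2 (50 IU/ml) in RPMI medium low in glucose (0.5 mM) with serum and 2-mercaptoethanol, so no group is unstimulated or rested. TGF-β was given at 3 ng/ml and lactic acid at 10 mM. The source animals are labelled male for replicate 1 and female for replicates 2 and 3. The labels give neither their number or age nor whether animals were pooled, and they do not say whether the 24 h and 72 h cells came from the same cultures. Where replicates were not separate cultures, the p-values measure the spread between samples, which may be technical.

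Gene counts per library ranged from 9754511 to 14315313 (median 12106958). Foxp3 checked the sort: it ran between 153 and 572 CPM (reads of a gene scaled to the size of its library) in the 6 Treg libraries, against 15.4 to 59.8 CPM in the 6 Tcon libraries cultured for 72 h with TGF-β; the 6 Tcon libraries of 24 h with TGF-β had 44.2 to 73.3 CPM, and the 5 Tcon libraries of 72 h without TGF-β 0 to 0.31 CPM. Foxp3 RNA was thus present in Tcon libraries with TGF-β, below the Treg level. T cell genes were high throughout. Of the B cell list, Cd79a, Ms4a1 and Pax5 reached at most 0.77 CPM and Cd79b 4.06 CPM, but Ighm ran from 80.8 to 295 CPM. Of the CD8 and NK cell list, Ncr1 and Klrb1c reached at most 0.455 CPM, while Nkg7 ran from 15 to 113 CPM, Eomes from 4.99 to 135 CPM and Klrk1 from 0.16 to 31.0 CPM. Cd8b1 ran from 3.38 to 14.1 CPM, and Cd8a, Klrd1 and Gzma reached 16.1, 15.2 and 19.0 CPM. In Tcon cells at 72 h the mean of Cd8a was 11.9 CPM with both agents and 9.52 CPM with TGF-β alone. It was 0.27 CPM with lactic acid alone and 0.36 CPM with neither. Of the myeloid list, Cd14, S100a8 and S100a9 were at 0 and Cd68 ran from 1.80 to 5.37 CPM. At 72 h replicate 1 stood apart within every group of 3 libraries, with a Pearson correlation (log2 CPM) of 0.970 to 0.984 to the other replicates, which correlated with each other at 0.990 to 0.992. In the group of 2 libraries the correlation was 0.972, and which library stood apart cannot be told.

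Entry into mitosis is driven by CDK1 bound to cyclin A or cyclin B, which is switched on by CDC25 phosphatases with the help of the kinases PLK1 and Aurora A. Kinetochores then attach chromosomes to the spindle under the watch of the spindle checkpoint, until the anaphase-promoting complex with CDC20 marks cyclin B and securin for destruction and separase opens the cohesin ring. Aurora B, survivin and the centralspindlin motors complete cytokinesis. T cells are known to leave quiescence after stimulation through CD3 and CD28 by growing first and then dividing quickly, and most genes of this kind are known to be transcribed in a late wave. That wave depends on FOXM1, on B-MYB with the MuvB complex and on NF-Y, which bind promoters through the cell cycle genes homology region (CHR) and the CCAAT box.

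The promoters of these genes are shown because the whole set moved between the time points and because a single member, Pttg1, moved unlike the others. The sequences come from RefSeq on GRCm38.p6, which is not the build of the counts, and each is the 120 bases directly before the gene's start on the strand of the gene, 5′ to 3′. Capitals mark motifs found on either strand. The CHR was searched as TTTGAA, which on the other strand is read as TTCAAA. A second form of the CHR was searched as TTTAAA, which is its own reverse complement. The CCAAT box was searched as CCAAT, which on the other strand is read as ATTGG, and a CHR and a CCAAT match can share an end base.
Ccnb1: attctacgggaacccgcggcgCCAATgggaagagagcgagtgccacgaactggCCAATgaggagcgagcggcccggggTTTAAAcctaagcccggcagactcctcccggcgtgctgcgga
Cdk1: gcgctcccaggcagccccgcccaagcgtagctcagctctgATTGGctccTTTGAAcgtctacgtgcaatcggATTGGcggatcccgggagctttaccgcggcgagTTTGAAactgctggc
Cdc20: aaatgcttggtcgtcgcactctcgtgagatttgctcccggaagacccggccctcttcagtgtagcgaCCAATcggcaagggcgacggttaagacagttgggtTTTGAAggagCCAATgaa
Espl1: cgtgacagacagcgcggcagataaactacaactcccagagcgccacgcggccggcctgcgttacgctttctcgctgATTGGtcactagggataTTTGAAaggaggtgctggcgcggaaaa
Ube2c: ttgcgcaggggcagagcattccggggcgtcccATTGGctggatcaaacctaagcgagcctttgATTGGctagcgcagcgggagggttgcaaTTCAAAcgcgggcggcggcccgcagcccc
Kif11: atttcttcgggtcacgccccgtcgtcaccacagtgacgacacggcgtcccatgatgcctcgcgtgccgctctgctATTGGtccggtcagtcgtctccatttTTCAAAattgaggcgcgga
Top2a: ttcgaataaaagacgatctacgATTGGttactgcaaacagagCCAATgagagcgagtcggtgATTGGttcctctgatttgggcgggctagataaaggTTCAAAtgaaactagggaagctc
Pttg1: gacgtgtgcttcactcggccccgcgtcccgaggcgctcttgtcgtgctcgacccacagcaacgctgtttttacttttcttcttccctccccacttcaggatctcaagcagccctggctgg

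These stretches are Ccnb1 chr13:100786487-100786606 (minus strand), Cdk1 chr10:69352913-69353032 (minus strand), Cdc20 chr4:118437344-118437463 (minus strand), Espl1 chr15:102296173-102296292 (plus strand), Ube2c chr2:164769809-164769928 (plus strand), Kif11 chr19:37376262-37376381 (plus strand), Top2a chr11:99024190-99024309 (minus strand), Pttg1 chr11:43425982-43426101 (minus strand). Promoters were matched for 35 of the 41 genes, with 38 entries, and Aurkb, Ccna2, Cdc25c, Dlgap5, Kif20a and Tpx2 had no entry. In the window of 300 bases from 250 before to 50 after the start, 30 of the 38 entries (78.9%) held a CHR in either form, against 27.6% of all 32851 RefSeq promoter entries. CCAAT was in 78.9% of the entries of these genes and in 37.4% of all entries, and both kinds were in 68.4% and 10.7%. Mad2l1, Nuf2, Nusap1 and Pttg1 had neither in this window, which says nothing of whether a factor binds there. Of these, Mad2l1, Nuf2 and Nusap1 were higher in every 72 h library than in any 24 h library, as most members were, and Pttg1 was not. A link between motifs and levels was not tested.

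The summed level of the 41 genes gave the broad picture over the groups. In the 72 h Treg libraries the sum was 7448, 8885 and 9140 CPM with lactic acid and 5809, 8096 and 7654 CPM without it. In the 72 h Tcon libraries it was 5659, 6919 and 8062 CPM with TGF-β and lactic acid, 4928, 6752 and 6886 CPM with TGF-β alone, 5143, 6021 and 5258 CPM with lactic acid alone, and 4770 and 5690 CPM with neither. At 24 h it was 627, 487 and 391 CPM with both agents, 777, 597 and 495 CPM with TGF-β alone, 907, 764 and 549 CPM with lactic acid alone, and 897, 914 and 705 CPM with neither. No 24 h library came near a 72 h library. At 72 h replicate 1 was the lowest of each group, and at 24 h replicate 3 was the lowest of each group.

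**Figure D1:**
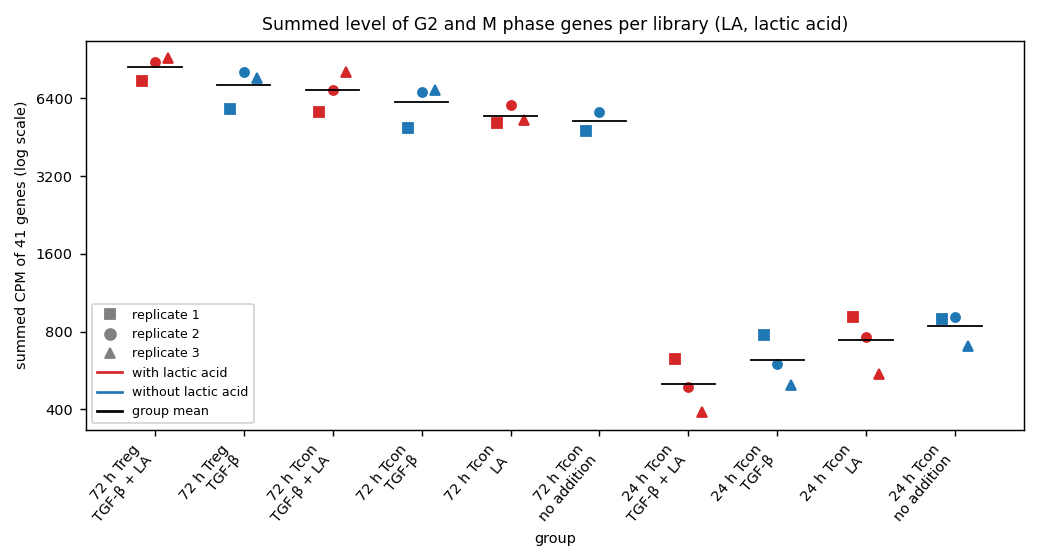
Summed level of the 41 G2 and M phase genes in each of the 29 libraries, in CPM scaled by TMM on a log axis, with groups on the x axis (72 h left, 24 h right), points for libraries and a line for the group mean. Every 72 h library was above every 24 h library, and the 72 h Treg group with lactic acid had the highest mean, 8491 CPM.

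Among the genes, 36 of 41 had their highest group mean in 72 h Treg cells with lactic acid, and 33 had their lowest in 24 h Tcon cells with both agents. Over the 29 libraries the median Pearson correlation between pairs of members was 0.98 (820 pairs), and it was 0.75 once group means were removed. These are descriptions over libraries that share groups. Pttg1, which encodes securin, stood apart with a median correlation of −0.45 to the other members, followed by Cks2, a small CDK subunit, at 0.82. Per kilobase of exon, the levels in 72 h Treg cells with lactic acid were highest for Top2a (199.85 CPM per kb), Mki67 (126), Ccnb2 (96.2) and Ccna2 (95.3), and lowest for Cdc25c (5.05) and Pttg1 (5.29). In 24 h Tcon cells with both agents Top2a was at 13.75 CPM per kb and Pttg1, at 9.25, was among the 3 highest.

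**Figure D2:**
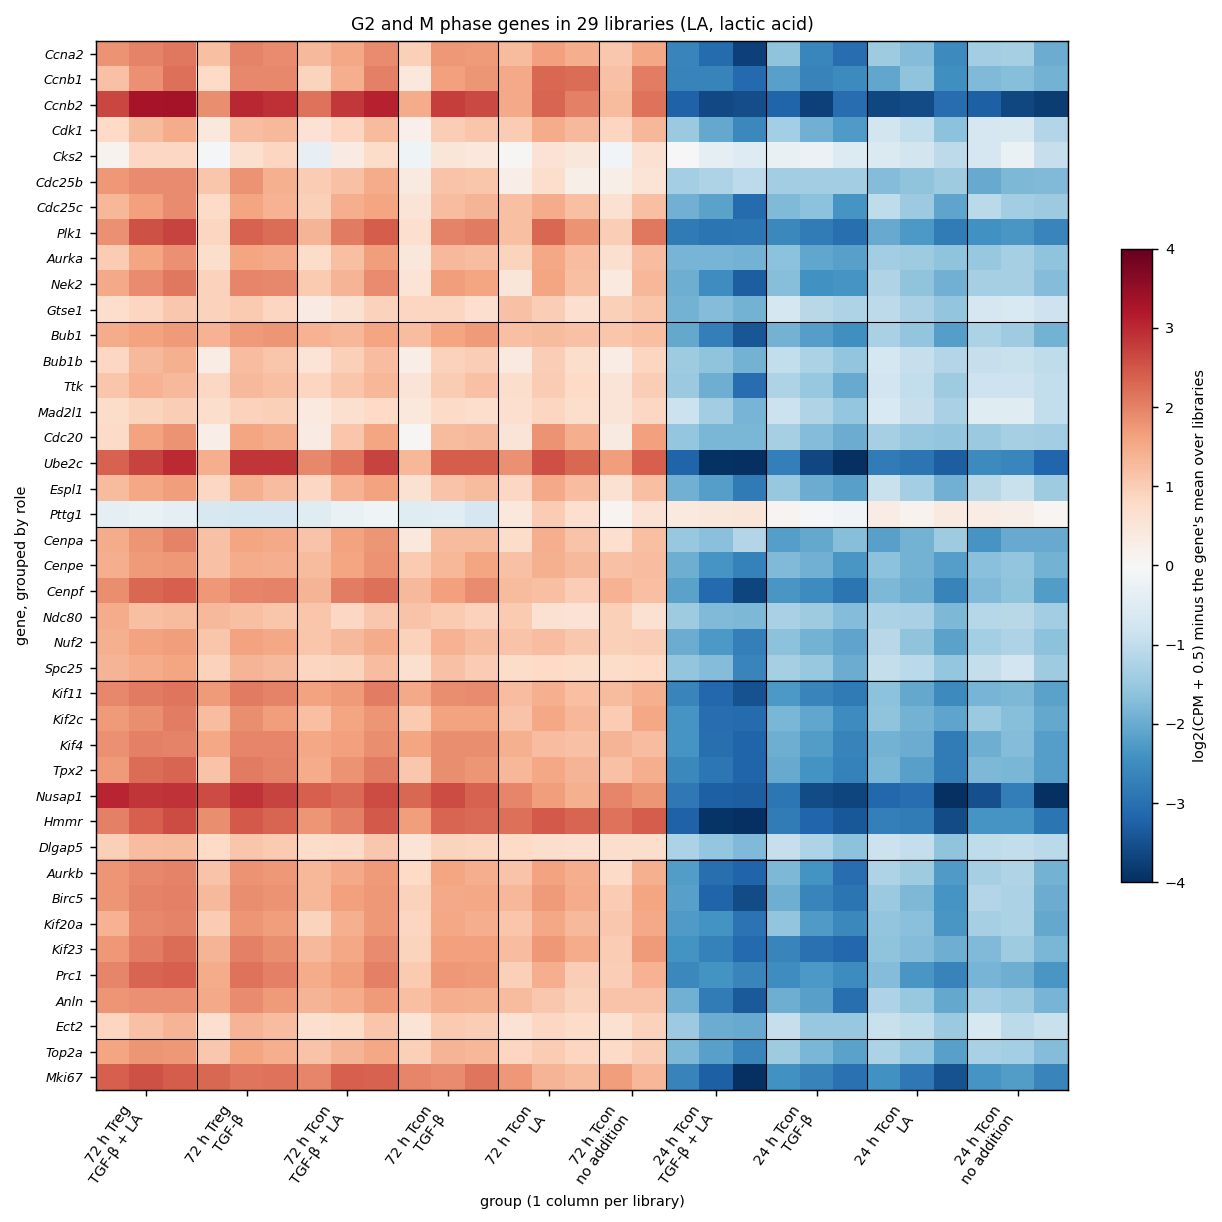
Level of each of the 41 genes in each library as log2(CPM + 0.5) minus the gene's mean over all 29 libraries, with genes in rows by role and libraries in columns (72 h left, 24 h right). Nearly all rows are high at 72 h and low at 24 h, and the row of Pttg1 is high at 72 h only where TGF-β was absent.

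Comparing 72 h with 24 h asks how far the division program had come on at the later time. Levels were higher at 72 h for nearly every member under each of the 4 conditions. In each test, edgeR's quasi-likelihood test (two-sided) with Benjamini-Hochberg adjustment over 14375 genes was used, and a gene was called at an adjusted p below 0.05. With both agents 39 of 41 genes were higher and Pttg1 was lower (24.4% of all genes tested were higher and 47.4% called in either direction). With TGF-β alone 39 were higher and Pttg1 was lower (28.0% of all genes higher, 52.8% called). With lactic acid alone all 41 were higher (26.5% and 46.6%), and with neither agent 40 were higher (27.1% and 45.5%). The median change of the members on the log2 scale was 4.13 with both agents, 3.45 with TGF-β alone, 2.98 with lactic acid alone and 2.68 with neither, whereas the median over all genes tested lay between −0.031 and 0.046 in every comparison of 2 groups reported here. Of all genes, 2.68%, 4.12%, 4.87% and 6.70% changed by more than those medians, in the same order of conditions. The number of members past an 8-fold increase was 30, 26, 19 and 15. Marker sums of other cells differed between the times too. The B cell sum was 189 CPM at 72 h against 146 CPM at 24 h with both agents, 98.6 against 133 CPM with TGF-β alone, 120 against 229 CPM with lactic acid alone and 105 against 241 CPM with neither. The sum of CD8 and NK cell genes was 220 against 65.4 CPM, 163 against 74.9 CPM, 89.5 against 155 CPM and 110.1 against 137 CPM in the same conditions. Both sums were thus lower at 72 h without TGF-β, where the members were higher as well. In the CD8 and NK sum with neither agent, Eomes fell (13.8 against 101 CPM) while Nkg7 rose (78.0 against 22.3 CPM). With lactic acid alone they were at 10.4 against 124 CPM and 58.8 against 16.5 CPM. The part of the sums in the result was not tested. Since no source used here says whether both times come from 1 experiment, time and experiment cannot be told apart. In bulk RNA, fewer cells in G2 and M and less RNA of these genes per cell cannot be told apart either.

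Of the 11 cyclins, mitotic kinases and their partners, Ccna2 (cyclin A2) ran from 192 to 426 CPM over the 17 libraries at 72 h (median 312), against 7.0 to 39.4 CPM over the 12 at 24 h (median 20.4). Ccnb1 (cyclin B1) lay between 27.9 and 103 CPM at 72 h (median 72.2) and between 2.0 and 6.5 CPM at 24 h (median 3.8). Neither gene's ranges overlapped between the times. Cdk1, the catalytic partner of both, was at 80.2 to 197 CPM at 72 h (median 150) and at 11.2 to 44.4 CPM at 24 h (median 25.6). Its increase was smaller than that of the cyclins, 2.93 ± 0.33 (log2, ± SE) with both agents (adjusted p = 1.39e-07), beside 4.75 ± 0.38 for Ccna2 (adjusted p = 5.16e-10) and 4.57 ± 0.45 for Ccnb1 (adjusted p = 1.46e-08); the differences between genes were not tested. Ccnb2 (cyclin B2) had the largest change of the 41, 111 ± 33 CPM at 72 h against 1.04 ± 0.22 CPM at 24 h with both agents (SD, n = 3 each), a log2 change of 6.73 ± 0.47 (adjusted p = 5.67e-11). Plk1, the polo kinase that promotes mitotic entry, ran from 41.3 to 169 CPM at 72 h (median 110), against 2.7 to 6.0 CPM at 24 h (median 3.5).
Gtse1, which encodes a microtubule-bound protein of G2 cells that restrains p53, was at 51.6 to 94.1 CPM at 72 h, against 10.8 to 27.0 CPM at 24 h. With TGF-β present, Cks2 changed least among the members that did not fall. It had 8.22, 13.2 and 17.4 CPM at 72 h and 10.2, 7.81 and 7.15 CPM at 24 h with both agents, groups that overlap, and the change of 0.63 on the log2 scale missed the threshold there (adjusted p = 0.0782), as did that of 0.65 with TGF-β alone (adjusted p = 0.0636).

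Among the 8 genes of the spindle checkpoint and of anaphase, Bub1b (BUBR1, a checkpoint kinase) ran from 103 to 226 CPM at 72 h (median 160), against 22.4 to 51.5 CPM at 24 h (median 39.5), and Cdc20, the activator of the anaphase-promoting complex, from 46.8 to 159 CPM (median 112) and from 11.2 to 18 CPM (median 15.5). Ube2c, the ubiquitin-conjugating enzyme of that complex, changed more, with a log2 change of 6.45 with both agents. Pttg1 was the exception. With both agents it had 9.5, 11.1 and 11.9 CPM at 72 h, against 17.9, 18.6 and 19.0 CPM at 24 h, and fell by 0.77 ± 0.14 on the log2 scale (adjusted p = 8.76e-05). With TGF-β alone it was 9.53, 9.69 and 8.24 CPM at 72 h, against 14.5, 13.1 and 12.1 CPM at 24 h, and fell by 0.54 ± 0.14 (adjusted p = 0.00311). The libraries of the 2 times did not overlap in either case. With lactic acid alone it went the other way, at 18.2, 27.8 and 21.5 CPM at 72 h, against 16.6, 15 and 17.4 CPM at 24 h, and rose by 0.47 ± 0.14 (adjusted p = 0.00729). With neither agent it was 14.6 and 20.3 CPM at 72 h and 16.6, 16.1 and 14.2 CPM at 24 h, with no call (log2 change 0.16 ± 0.15, adjusted p = 0.402).

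Centromere, spindle and cytokinesis genes were higher at 72 h in all 20 cases in each condition. Cenpe, a kinetochore motor, was at 107 to 181 CPM at 72 h, against 7.5 to 17.2 CPM at 24 h. Kif11, the motor that pushes spindle poles apart, ran from 242 to 463 CPM at 72 h (median 344), against 9.0 to 32.9 CPM at 24 h (median 19.1). Aurkb (Aurora B) was at 85.7 to 199 CPM at 72 h and 5.0 to 21.5 CPM at 24 h, Birc5 (survivin) at 77.8 to 167 CPM and 2.9 to 17.6 CPM, and Kif20a, a motor of cytokinesis, at 85.4 to 186 CPM and 5.6 to 19.2 CPM. In no gene of these did a 24 h library reach a 72 h library. Hmmr and Nusap1, which bind spindle microtubules, followed Ccnb2 and Ube2c in size, at 6.41 and 5.83 on the log2 scale with both agents. Of the chromosome genes, Top2a, the topoisomerase that untangles DNA before anaphase, ran from 959 to 1904 CPM at 72 h and was far from silent at 24 h, at 89.1 to 232 CPM, while Mki67, the proliferation antigen Ki-67, ran from 553 to 1359 CPM and from 14.1 to 48.1 CPM.

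Genes of S phase had smaller median changes between the times. Their mean level over 40 genes (log2 CPM) was 5.80 to 7.38 over all libraries, and the mean of the 41 G2 and M phase genes lay 0.13 to 0.90 below it at 72 h but 3.12 to 3.34 below it at 24 h. Between 72 h and 24 h, 26 of the 40 S phase genes were higher and 1 lower with both agents, and 12 were higher and 7 lower with neither, with medians of 0.70 and 0.10 on the log2 scale. Of the other mitotic lists with both agents, 26 of 31 further kinetochore genes were higher at 72 h and 1 lower, 25 of 28 further spindle genes and 14 of 19 condensin and cohesin genes were higher and none lower, 9 of 17 genes of the anaphase-promoting complex were higher and 3 lower, and 15 of 26 regulators of G2 and M were higher and 1 lower. Foxm1 had a log2 change of 4.27 ± 0.16 with both agents (161 against 8.33 CPM, adjusted p = 4.78e-15) and Mybl2, which encodes B-MYB, of 2.57 ± 0.24 (adjusted p = 7.8e-09). With neither agent the changes were 2.62 and 1.55. Among the further genes, Cdca3, a regulator of mitotic entry, had a change of 5.06 ± 0.26 with both agents, and Fbxo5, an inhibitor of the anaphase-promoting complex, of 3.11 ± 0.17.

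**Figure D3:**
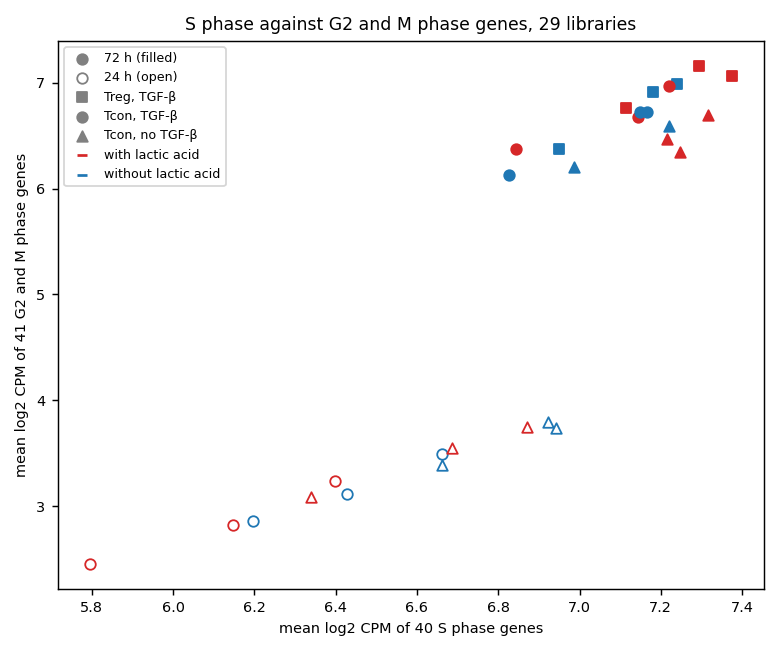
Mean level of the 41 G2 and M phase genes (y axis, mean log2 CPM) against that of 40 S phase genes (x axis, mean log2 CPM), with a point per library. Points are red with lactic acid and blue without it, filled at 72 h and open at 24 h, and shapes mark population and TGF-β. The G2 and M phase mean lies 0.13 to 0.90 below the S phase mean in the 72 h libraries and 3.12 to 3.34 below it in the 24 h libraries.

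TGF-β at 24 h went with lower levels of a part of the set, both with and without lactic acid, and the genes of cytokinesis and of the chromosomal passenger complex had the most calls. Between Tcon cells with both agents and Tcon cells with lactic acid alone, 14 of 41 genes were lower and none higher (4.38% of all genes tested were lower and 12.4% called in either direction). Between cells with TGF-β alone and cells with neither agent, 4 of 41 were lower and none higher (3.35% and 11.3%). The median change was −0.72 with lactic acid and −0.48 without, and 36 and 37 of the 41 changes were negative. By role, the calls with lactic acid were 5 of 7 genes of cytokinesis and the passenger complex, 3 of 8 of the checkpoint and anaphase, 2 of 11 cyclins and kinases, 2 of 6 centromere genes, 2 of 7 spindle genes and neither of the chromosome genes. Replicate numbers were taken to pair the libraries within a time point. With the replicate number as a block, 28 genes with lactic acid were lower and 3 higher (Cenpa, Cdc25b and Cks2, with 32.4% of all genes called). Without lactic acid 27 were lower and 1 higher (Cdc25b, with 31.7% of all genes called).

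With lactic acid, the call of Kif11 held in every fit with a library left out. It was at 16.4, 11.4 and 8.96 CPM with both agents, against 32.9, 25.1 and 17.4 CPM with lactic acid alone, and fell by 1.04 ± 0.21 on the log2 scale (adjusted p = 0.00126). Without lactic acid it was at 20.7, 16.2 and 14.3 CPM with TGF-β, against 28.3, 29.8 and 23.5 CPM, and fell by 0.67 ± 0.20 (adjusted p = 0.0353). The groups did not overlap in either case.
Kif23, a motor of the centralspindlin complex, held its call in every such fit without lactic acid. It was at 3.51, 2.68 and 2.37 CPM with TGF-β, against 6.82, 8.87 and 6.58 CPM with neither agent, and fell by 1.37 ± 0.30 (adjusted p = 0.00277). Birc5 was at 10.1, 6.02 and 4.93 CPM with TGF-β alone, against 17.6, 16.5 and 9.87 CPM with neither agent, and fell by 1.06 ± 0.32 (adjusted p = 0.0343), although 1 library of each group crosses into the range of the other. Cdk1 was at 26.7, 18 and 14.2 CPM with TGF-β alone, against 43.9, 44.4 and 30.7 CPM with neither agent, and fell by 1.01 ± 0.32 (adjusted p = 0.0424), with no overlap.

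With lactic acid in both groups, Ccna2 had the largest fall, 15.5, 11.2 and 7.0 CPM with TGF-β, against 36.5, 29.6 and 16.4 CPM without it (−1.30 ± 0.35, adjusted p = 0.0164). Aurkb was at 10.2, 5.74 and 4.95 CPM with TGF-β, against 21.0, 18.6 and 9.93 CPM without it (−1.26 ± 0.34, adjusted p = 0.0137). In both genes the lowest library without TGF-β, replicate 3, lay close to the highest with it, replicate 1, and for Aurkb they crossed. Ttk, the checkpoint kinase MPS1, was at 7.67, 5.34 and 2.28 CPM with TGF-β and 12.9, 11.2 and 8.02 CPM without it, and did not overlap (−1.08 ± 0.29, adjusted p = 0.0152). The other genes called were Anln (anillin, a scaffold of the cleavage furrow), Birc5, Kif2c, Kif23, Bub1, Espl1 (separase), Spc25, Nuf2, Ect2 and Gtse1, with changes between −1.13 and −0.56.
Top2a was at 159, 124 and 89.1 CPM with TGF-β and lactic acid and at 232, 189 and 124 CPM with lactic acid alone, groups that overlap (log2 difference −0.55 ± 0.22, adjusted p = 0.0997), and Bub1b, at −0.71 ± 0.25, also missed the threshold (adjusted p = 0.068). With the block both were lower (adjusted p = 3.82e-05 and 1.58e-05).

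The counts rested on few libraries. With lactic acid, leaving out a single library gave between 1 and 22 called genes. The count was 1 when replicate 1 of lactic acid alone or replicate 3 of both agents was dropped, 4 when replicate 2 of either was, and 22 when replicate 3 of lactic acid alone was. Without lactic acid the count was 1 without replicate 1 or 2 of the group with neither agent or without replicate 2 or 3 of the TGF-β group, and 8 without replicate 1 of the TGF-β group. DESeq2 called 22 with lactic acid and 9 without it.

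S phase genes went the same way, with 20 of 40 lower and none higher with lactic acid and 8 of 40 lower without it. Tk1, the thymidine kinase of S phase, fell by 1.35 ± 0.23 with lactic acid (adjusted p = 0.000218) and by 1.22 ± 0.23 without it (adjusted p = 0.0006). Of the further spindle genes 10 of 28 were lower and 3 higher with lactic acid; Kif15, a motor that backs up Kif11, fell by 1.49 ± 0.18 (adjusted p = 2.27e-06), while Fam83d rose by 2.06 ± 0.54 (adjusted p = 0.0119) at 2.29 CPM against 0.535 CPM. Kinetochore genes gave 9 of 31 lower, among them Cenpm and Knl1, condensin and cohesin genes 6 of 19, and regulators of G2 and M 8 of 26 lower and 1 higher. Foxm1 was at 8.33 CPM with both agents, against 13.1 CPM with lactic acid alone, and fell by 0.66 ± 0.16 (adjusted p = 0.0073). Mybl2 fell by 0.99 ± 0.24 (10.0 against 19.9 CPM, adjusted p = 0.0073). Without lactic acid the changes were −0.46 for Foxm1 (adjusted p = 0.0556) and −0.68 for Mybl2 (adjusted p = 0.0643), and both were called lower with the replicate block. The block gave 35 of 40 S phase genes lower with lactic acid and 36 without it, and of the further spindle genes 18 of 28 and 16 of 28.
Marker sums moved with TGF-β as well. The B cell sum, in which Ighm is the main gene, was 146 ± 8 CPM with both agents against 229 ± 9 CPM with lactic acid alone, and the sum of CD8 and NK cell genes was 65.4 against 155 CPM. Without lactic acid they were 133 ± 1.5 against 241 ± 10 CPM and 74.9 against 137 CPM (SD, n = 3 each). The fall of the CD8 and NK sum lay mainly in Eomes, at 12.7 against 124 CPM with lactic acid and 11.4 against 101 CPM without it. Nkg7 of the same list rose, at 44.0 against 16.5 CPM and 57.3 against 22.3 CPM. The part of these sums in the result was not tested.

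**Figure D4:**
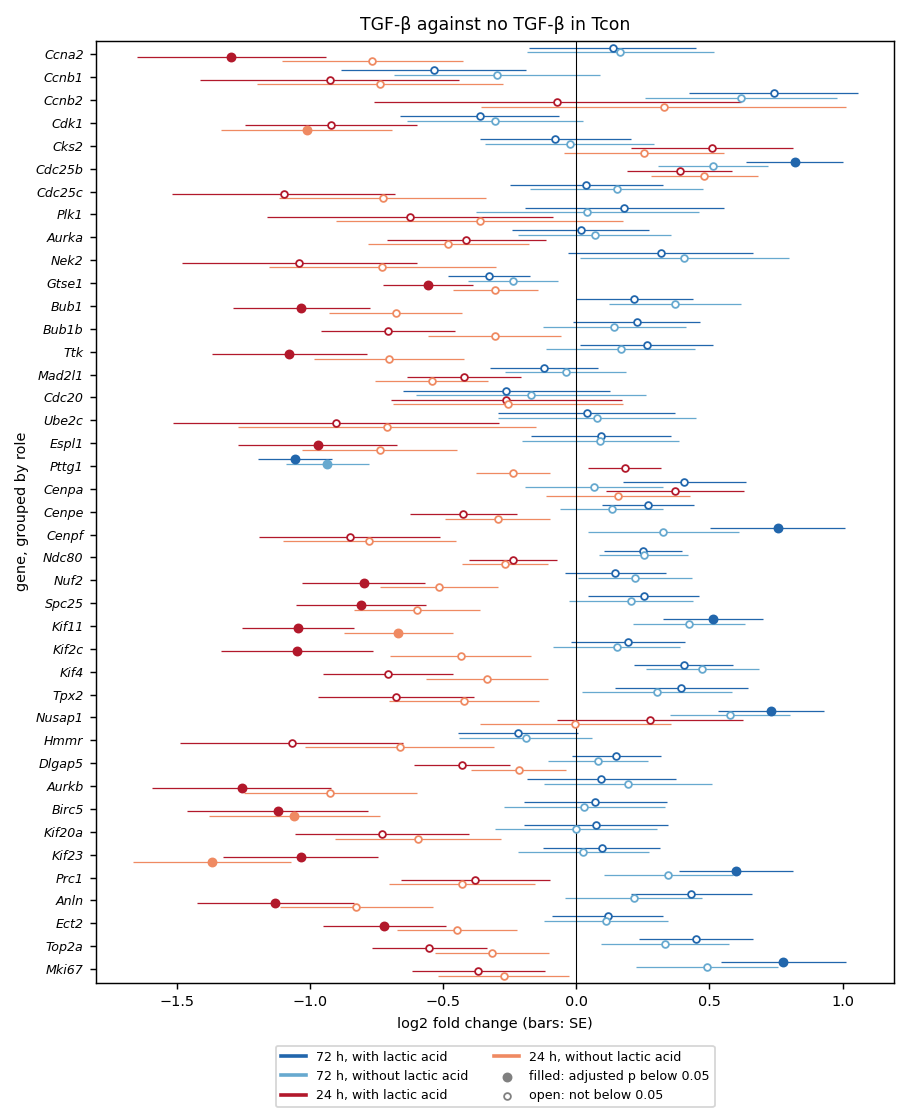
Log2 fold change of each of the 41 genes with TGF-β over without TGF-β, with bars of 1 SE, at 72 h (blue) and 24 h (red and orange), each with and without lactic acid. At 72 h most points are slightly above 0, with a median of 0.18 with lactic acid, except Pttg1 at −1.06, and at 24 h most are below 0, with a median of −0.72 with lactic acid.

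At 72 h, TGF-β went with higher levels of a few members and with lower Pttg1. With lactic acid in both Tcon groups 6 of 41 genes were higher and 1 lower, which is a smaller share than among all genes tested (22.5% in each direction, 45.0% called); 33 of 41 changes were positive, with a median of 0.18. The pairs of same-numbered libraries were unlike, with 27, 20 and 38 positive differences in replicates 1, 2 and 3 and a median of −0.047 in replicate 2 against 0.45 in replicate 3. Without lactic acid 1 of 41 was lower and none higher (11.7% of all genes lower, 24.5% called), 32 changes were positive and the median was 0.15. There replicate 1 had 15 positive and 26 negative differences (median −0.076) and replicate 2 had 29 positive and 12 negative. With the replicate block, estimated over all 72 h libraries and not these 2 pairs alone, the median was 0.054. That fit gave 9 members higher and 5 lower (45.4% of all genes called). In both comparisons the median differed in sign between pairs.
Cdc25b, the phosphatase that starts CDK1 activation, was at 109, 121 and 151 CPM with both agents, against 64.7, 87.9 and 62.9 CPM with lactic acid alone, and rose by 0.82 ± 0.18 (adjusted p = 0.000867). Mki67 was at 892, 1211 and 1171 CPM with both agents, against 767, 590 and 553 CPM with lactic acid alone, and rose by 0.78 ± 0.24 (adjusted p = 0.0101). Neither pair of groups overlapped. Cenpf, a protein of the outer kinetochore, was at 74.8, 120 and 135 CPM with both agents and 69.9, 66.7 and 58.1 CPM with lactic acid alone (0.76 ± 0.25, adjusted p = 0.0179). Nusap1, Prc1 and Kif11 were the other 3, at 0.73, 0.60 and 0.51.
With the replicate block 18 were higher and 6 lower (60.0% of all genes called), and the added falls included Ccnb1 (−0.56, adjusted p = 0.000157) and Cdk1 (−0.38, adjusted p = 0.00348). Ccnb1 was at 38.3, 57.5 and 85.2 CPM with both agents and at 59.9, 103 and 99.3 CPM with lactic acid alone.

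Pttg1 had the smallest p of the members in both comparisons. It was at 9.5, 11.1 and 11.9 CPM with both agents, against 18.2, 27.8 and 21.5 CPM with lactic acid alone, and fell by 1.06 ± 0.14 on the log2 scale (adjusted p = 2.02e-06). It was at 9.53, 9.69 and 8.24 CPM with TGF-β alone, against 14.6 and 20.3 CPM with neither agent, and fell by 0.94 ± 0.15 (adjusted p = 8.26e-05, n = 3 and n = 2). Every library with TGF-β was below every library without it, and the 6 Treg libraries, all of which had TGF-β, were at 8.04 to 11.2 CPM.

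The effect of TGF-β at 72 h minus that at 24 h differed for part of the set. With lactic acid 14 of 41 genes had a higher effect at 72 h and 1 a lower (6.73% of all genes tested higher and 14.4% called in either direction), and without it 2 had a higher effect and 1 a lower (5.73% called). Kif11 was among them in both, with a difference of 1.56 ± 0.28 with lactic acid (adjusted p = 0.000564) and of 1.09 ± 0.29 without it (adjusted p = 0.0282). Pttg1 differed the other way, by −1.24 ± 0.20 with lactic acid (adjusted p = 0.000144) and by −0.70 ± 0.21 without it (adjusted p = 0.049). Leaving out a single library gave 4 to 22 calls with lactic acid and 0 to 2 without it. With lactic acid the count was 4 and 7 when replicates 1 and 2 of lactic acid alone at 24 h were dropped in turn, 7 and 5 for replicates 2 and 3 of both agents at 24 h, 9 and 6 for replicates 2 and 3 of both agents at 72 h, and 9 for replicate 3 of lactic acid alone at 72 h. Without lactic acid it was 1 when replicate 1 of neither agent at either time was dropped, and 0 for replicate 2 of neither agent at 24 h and for replicates 2 and 3 of TGF-β alone at either time. Anln, Cenpf, Kif11 and Pttg1 held in every such fit with lactic acid.

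Other lists at 72 h had calls in both directions. With lactic acid 7 of 28 further spindle genes were higher and 1 lower, 6 of 19 condensin and cohesin genes were higher, 4 of 17 genes of the anaphase-promoting complex were lower, and 6 of 40 S phase genes were lower and none higher. Among all genes tested 22.5% were higher and 22.5% lower in that comparison. Whether these lists differed from other genes was not tested. Cit, the citron kinase of cytokinesis, rose by 1.13 ± 0.17 (adjusted p = 8.54e-06), and Rbl1, which encodes the pocket protein p107, by 1.06 ± 0.08 (adjusted p = 1.24e-09). Foxm1 was at 161 CPM with both agents, against 105 CPM with lactic acid alone, and rose by 0.62 ± 0.14 (adjusted p = 0.000842); without lactic acid it rose by 0.44 ± 0.15 (adjusted p = 0.0373). Mybl2 gave −0.50 with lactic acid (adjusted p = 0.0656) and was called lower with the block. With lactic acid the block also gave 20 of 28 further spindle genes and 11 of 19 condensin and cohesin genes higher, and 8 of 17 genes of the anaphase-promoting complex and 18 of 40 S phase genes lower. It called 60% of all genes tested in either direction. The sum of CD8 and NK cell genes was 220 CPM with both agents against 89.5 CPM with lactic acid alone, and the B cell sum 189 against 120 CPM, and their part in the result was not tested.

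Treg against Tcon cells at 72 h, both with TGF-β, asks whether RFP+ cells differed in these genes from RFP− cells in the same culture conditions, whose libraries also held some Foxp3 RNA. Values were higher in Treg cells for nearly every member, but no member passed the test in the fit without the replicate block. With lactic acid 40 of 41 changes were positive, with a median of 0.30 on the log2 scale, and edgeR called 0 of 41 (2.55% of all genes tested), with 5 at an unadjusted p below 0.05 (13.2% of all genes) and 1, Cdc25b, by DESeq2. Without lactic acid 40 of 41 were positive, with a median of 0.23, and edgeR called 0 (0.216%), with 1 at an unadjusted p below 0.05 (5.63%) and 0 by DESeq2. Between cells of the same replicate number, Treg minus Tcon was positive for 41, 41 and 38 of the genes in replicates 1, 2 and 3 with lactic acid and for 39, 40 and 39 without. With the replicate block 17 of 41 were higher and none lower with lactic acid (7% of all genes higher, 12.7% called), and 2 were higher without it, Cdc25b and Cenpa (2.94% called).

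Cdc25b had the smallest p of the members in both. With lactic acid it was at 182, 202 and 202 CPM in Treg cells, against 109, 121 and 151 CPM in Tcon cells, groups that did not overlap (0.62 ± 0.18, adjusted p = 0.0727, and 0.000538 with the block). Without lactic acid it was at 115, 186 and 145 CPM in Treg cells, against 69.4, 120 and 116 CPM in Tcon cells, with overlap (0.54 ± 0.18, adjusted p = 0.405, and 0.00615 with the block). Top2a with lactic acid was at 1654, 1904 and 1846 CPM in Treg cells and 1238, 1446 and 1640 CPM in Tcon cells (0.32 ± 0.21, adjusted p = 0.584, and 0.0118 with the block). Kif20a was at 122, 176 and 186 CPM in Treg cells and 86.1, 126 and 157 CPM in Tcon cells (0.39 ± 0.27, adjusted p = 0.613, and 0.00637 with the block). Within each replicate number the Treg library was the higher of the pair for all 3 genes. Pttg1 stayed apart here too, with 10.2, 11.2 and 10.3 CPM in Treg cells and 9.5, 11.1 and 11.9 CPM in Tcon cells with lactic acid.
Foxm1 gave 0.35 with lactic acid (adjusted p = 0.237) and 0.33 without it (adjusted p = 0.669), Mybl2 gave 0.28 (adjusted p = 0.668) and 0.15 (adjusted p = 1), and none of the other mitotic or S phase lists had a called gene in either comparison without the block. With the block and lactic acid, Foxm1 and Mybl2 were higher in Treg cells, as were 12 of 40 S phase genes, 10 of 28 further spindle genes, 9 of 26 regulators, 8 of 19 condensin and cohesin genes, 4 of 31 kinetochore genes and 2 of 17 genes of the anaphase-promoting complex, and none was lower. Without lactic acid the block gave 2 spindle genes higher and no other call in these lists. The B cell sum was 283 CPM in Treg cells and 189 CPM in Tcon cells with lactic acid, and 133 and 98.6 CPM without it; the sum of CD8 and NK cell genes was 175 and 220 CPM with lactic acid and 167 and 163 CPM without it. Their part was not tested. Leaving out a single library gave no call in either comparison.

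**Figure D5:**
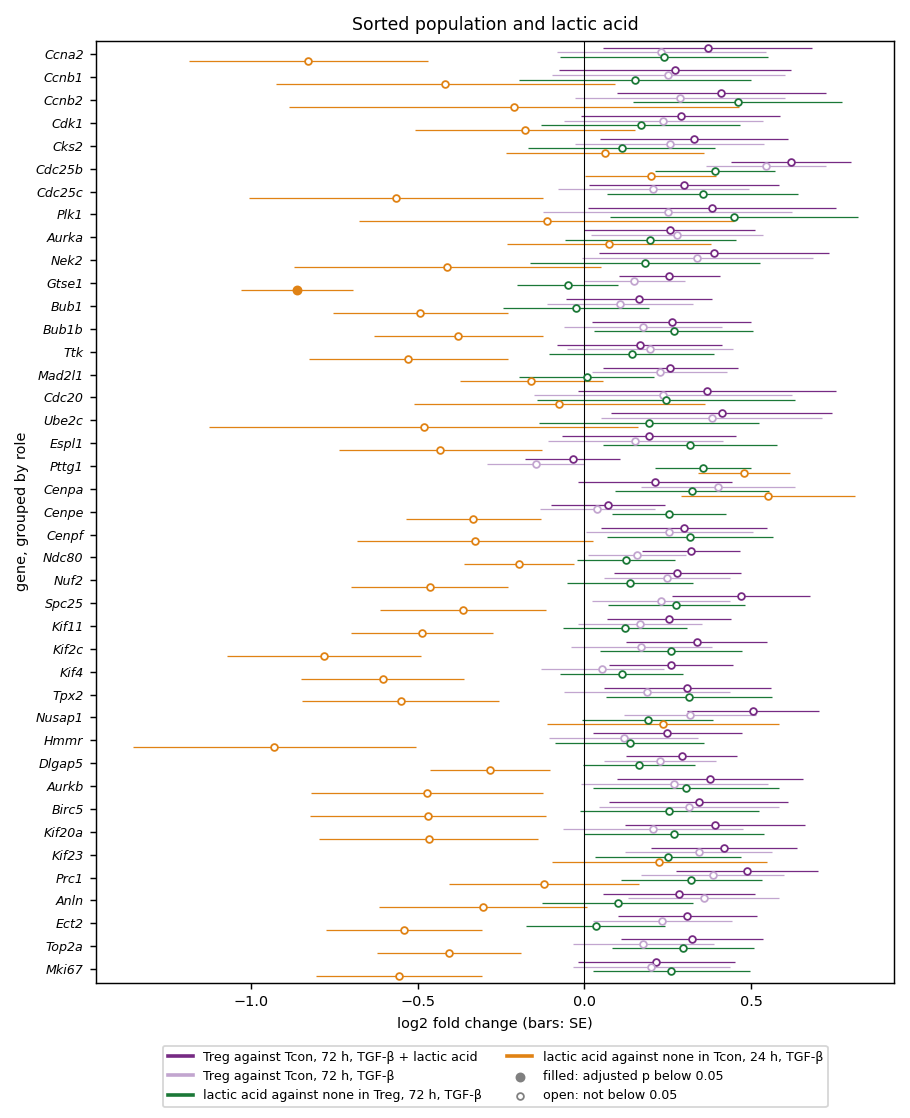
Log2 fold change of each of the 41 genes, with bars of 1 SE, for Treg over Tcon cells at 72 h with and without lactic acid and for lactic acid over no lactic acid in Treg cells at 72 h and in Tcon cells with TGF-β at 24 h. Filled points passed the test in the fit without the replicate block. Treg over Tcon lies above 0 for 40 of 41 genes in both conditions with no filled point, and at 24 h Gtse1 is the filled point below 0.

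In the fit without the replicate block, lactic acid gave few calls at either time. In Tcon cells at 24 h with TGF-β, Gtse1 was lower and none of the other 40 passed (0.0696% of all genes tested were lower, 0.230% called). It was at 10.9, 12.0 and 10.8 CPM with lactic acid, against 24.9, 19.1 and 17.3 CPM without it, groups far apart, and fell by 0.86 ± 0.17 (adjusted p = 0.0294). That call was lost in each of the fits without replicate 1 or 2 of either group and in the fit without replicate 3 of the group with both agents. For the whole set 34 of 41 changes were negative, with a median of −0.41, and 10 were at an unadjusted p below 0.05 (8.33% of all genes). With the replicate block 9 were lower (Gtse1, Ccna2, Kif2c, Mki67, Ect2, Bub1, Kif11, Top2a and Bub1b) and 2 higher (Pttg1 and Cenpa), with 6.70% of all genes called.
Without TGF-β at 24 h edgeR called 0 of 41 (0.0835% of all genes), with 1 at an unadjusted p below 0.05 (7.14%) and 0 by DESeq2; 33 changes were negative, with a median of −0.17. By pairs, 34 and 37 differences were negative in replicates 2 and 3, but 23 were positive and 18 negative in replicate 1. The gene of smallest p was again Gtse1, at 19.6, 16.4 and 13.6 CPM with lactic acid and 25.6, 27.0 and 23.1 CPM without it (−0.61 ± 0.16, adjusted p = 0.209). These groups did not overlap, and with the block Gtse1 (adjusted p = 0.0253) and Mad2l1 (adjusted p = 0.0483) were lower, with 4.27% of all genes called.

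At 72 h edgeR called 0 of 41 with lactic acid in Treg cells (3.51% of all genes), 0 in Tcon cells with TGF-β (2.16%) and 0 in Tcon cells without TGF-β (0.0696%); 2, 1 and 1 members were at an unadjusted p below 0.05, as were 17.1%, 14.2% and 8.97% of all genes, and DESeq2 called 0 in each. Most values were higher with lactic acid all the same, 39 of 41 in Treg cells (median 0.24), 35 in Tcon cells with TGF-β (0.15) and 30 in Tcon cells without it (0.09). By pairs, 40, 27 and 39 differences were positive in replicates 1, 2 and 3 of Treg cells, and 36 and 31 in the 2 pairs of Tcon cells without TGF-β. In Tcon cells with TGF-β they were 35, 15 and 39, so that most members were lower with lactic acid in replicate 2 (median −0.082). In Treg cells with the block 16 were higher and none lower (9.91% of all genes higher, 19.7% called), led by Plk1 and Ccnb2. Plk1 was at 91.8, 153 and 169 CPM with lactic acid and at 47.4, 133 and 123 CPM without it (0.45 ± 0.37, adjusted p = 0.601; with the block 0.52, adjusted p = 0.00417), with most of the difference in replicates 1 and 3. In Tcon cells with TGF-β the block gave 3 higher, Cdc25b, Ccnb2 and Cenpa (15.4% called); Cenpa, the histone H3 variant of centromeres, was at 111, 153 and 171 CPM with lactic acid and at 66.6, 118 and 120 CPM without it (0.51 ± 0.23, adjusted p = 0.308; with the block 0.53, adjusted p = 0.000329). Pttg1 had the smallest p in the other 2, with 10.2, 11.2 and 10.3 CPM against 8.42, 8.04 and 8.34 CPM in Treg cells, groups apart (0.36 ± 0.14, adjusted p = 0.191), and 18.2, 27.8 and 21.5 CPM against 14.6 and 20.3 CPM in Tcon cells without TGF-β, which overlap (0.37 ± 0.15, adjusted p = 0.49).
The B cell sum moved with lactic acid at 72 h, at 283 against 133 CPM in Treg cells, 189 against 98.6 CPM in Tcon cells with TGF-β and 120 against 105 CPM in Tcon cells without it, and the sum of CD8 and NK cell genes was 175 against 167 CPM, 220 against 163 CPM and 89.5 against 110.1 CPM. At 24 h the B cell sum was 146 against 133 CPM with TGF-β and 229 against 241 CPM without it. Their part in the result was not tested.
Foxm1 gave −0.62 (adjusted p = 0.147) and Mybl2 −0.56 (adjusted p = 0.54) at 24 h with TGF-β, and both were called lower with the block. At 72 h Foxm1 gave 0.15 in Treg cells and 0.14 in Tcon cells with TGF-β, and Mybl2 0.16 and 0.022, with no call. Of the 26 regulators, Gadd45b, a stress-induced brake of the G2 transition, was lower with lactic acid at 72 h in Treg cells (31.0 against 66.6 CPM, −1.10 ± 0.29, adjusted p = 0.0347) and in Tcon cells with TGF-β (35.2 against 80.9 CPM, −1.20 ± 0.29, adjusted p = 0.0271).

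Whether the effect of lactic acid depended on TGF-β, on the cell type or on time was tested as a difference of effects, and edgeR and DESeq2 each called 0 members in all 5 tests. Of all genes, edgeR called 0.104% for TGF-β at 72 h, 0.0278% for time with TGF-β and 0% in the other 3 tests. The smallest unadjusted p, 0.00478, was that of Gtse1, whose effect of lactic acid with TGF-β was higher at 72 h than at 24 h by 0.71 ± 0.23 (adjusted p = 0.634). For that difference 36 of 41 values were positive, with a median of 0.54, and 4 were at an unadjusted p below 0.05 (5.71% of all genes). Without TGF-β 37 were positive, with a median of 0.26, and 1 was at an unadjusted p below 0.05 (9.13%). Of the other 3 tests, that of TGF-β at 24 h gave 1 such member (1.37% of all genes), and those of TGF-β and of cell type at 72 h gave 0 (7.8% and 2.65%).

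For 9 members a protein-coding gene lies on the opposite strand at the same place (Ccna2, Cdc25b, Cdc25c, Cdc20, Ube2c, Kif4, Nusap1, Kif20a and Prc1), and for 3 (Ccnb1, Ccnb2 and Kif4) a named pseudogene exists. Which strand setting was used to count reads is not stated, and the values of these genes carry that uncertainty.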

How the data were processed

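PolyA RNA of 29 libraries was sequenced as 65-base single reads from a stranded mRNA kit, per the labels' protocols. The authors deposited whole-number counts per Ensembl gene. STAR 2.7.3a, HTSeq 0.12.4, DESeq2 1.30.1 and GRCm39 are named in the submitters' processing notes; the annotation release and strand setting are not stated in any source used here. Rows that name no gene (reads of low alignment quality 13.3 to 17.0%, without feature 5.72 to 11.2%, ambiguous 1.01 to 1.13%) were left out. Symbols were found for 52081 of 55414 identifiers.

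From these counts, genes were filtered with filterByExpr (minimum count 10, minimum total 15), scaled by TMM and tested with edgeR 4.0.16 (R 4.3.3, limma 3.58.1; quasi-likelihood, prior count 0.125) in 1 fit over the 10 groups, with Benjamini-Hochberg adjustment over 14375 genes and a threshold of 0.05. The SE of a log2 fold change was taken from its F statistic, as its absolute value over the root of F. Levels are TMM-scaled CPM; per kilobase they are divided by the exon length in GENCODE M21. Of 22 comparisons, 2 differences over time for lactic acid were added after seeing the data, and the steps were tested on simulated data. There, 46% to 62% of 2-fold changes and 83% to 85% of 4-fold changes were called in the right direction. Smaller changes were not simulated, nor were replicate effects shared across genes or broad changes between the time points. These rates need not hold for the comparisons reported here. Alternatives were RLE scaling, DESeq2 1.42.0, no filter, the compared groups alone, a replicate block, each library left out and, added after seeing the data, all replicate 1 libraries left out. Figures were drawn with Python 3.11.15 and matplotlib 3.10.9.

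Within a time point, libraries with the same replicate number in the labels were treated as pairs. In the comparisons with 3 pairs, the deviations of same-numbered libraries correlated at 0.15 to 0.86 (at least 0.056 on autosomal genes). Differently numbered libraries reached at most 0.053 at 24 h, but 0.443 at 72 h. There they could exceed the lowest same-numbered value, at 0.443 against 0.326 for TGF-β with lactic acid. For lactic acid in Tcon cells with TGF-β it was 0.371 against 0.289. Pairing is thus less clear at 72 h, and for replicate 1 number and sex cannot be told apart. Between time points same-numbered libraries correlated at −0.12 to 0.20 and were not taken as pairs. The exception is the replicate block in the comparisons over time, which joined them across time points. The Pearson correlation of replicates was 0.986 to 0.992 at 24 h and 0.970 to 0.992 at 72 h, where it was lowest with replicate 1, and no 2 libraries agreed within sampling noise. The precision is limited by 2 to 3 libraries a group and by a spread between replicates beyond counting noise. The members and the other gene lists were chosen with earlier results of these data known. Named genes are a panel of 14 members with values per library and, in each comparison, the called members with the 3 largest rises and 3 largest falls at a mean of at least 5 CPM or, where none was called, the member of smallest p; of other lists at most 4 called genes of largest change, and Foxm1 and Mybl2. Genes named beyond the rule were chosen after their values were seen.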

Additional observations from a re-analysis of the deposited data

Results flagged for a closer look

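The effect of TGF-β on Tcon cells differed between 72 h and 24 h for some of the genes, by a direct test of the difference (edgeR's quasi-likelihood test with Benjamini-Hochberg adjustment, effect at 72 h minus effect at 24 h, log2 scale). With lactic acid 15 members passed (14.4% of all genes tested were called). The effect was higher at 72 h for Cenpf (1.61), Anln and Kif11 (1.56 each), Ccna2 (1.43), Aurkb (1.35), Ttk (1.34), Bub1 (1.25), Kif2c (1.24), Mki67 (1.15), Kif23 (1.13), Kif4 (1.11), Spc25 (1.06), Top2a (1.00) and Nuf2 (0.95). It was lower at 72 h for Pttg1 (−1.24). Without lactic acid 3 members passed (5.73% of all genes called), with Kif23 at 1.40 and Kif11 at 1.09 higher and Pttg1 at −0.70 lower at 72 h. With a single library left out, the count ran from 4 to 22 with lactic acid and from 0 to 2 without it. Of the 11 such fits without lactic acid, the call was lost in 10 for Pttg1, 7 for Kif11 and 6 for Kif23. Since time and experiment cannot be told apart here, neither can the source of these differences.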

How the results depend on the processing

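No member that passed the test in the reported fit or in an alternative had the opposite sign in the other; some members that passed in neither did change sign. RLE scaling moved no count of called members by over 1.5 times. Counts below follow the order TGF-β at 24 h with lactic acid, TGF-β at 24 h without, and others as named. Without the filter on low counts they were 25 and 13, with 4 for TGF-β at 72 h without lactic acid, 1 for Treg against Tcon with lactic acid, and 24 (with lactic acid) and 8 (without) for the TGF-β effect over time. DESeq2 gave 22 and 9, with 2 and 1 for the same next 2 comparisons. The compared groups alone gave 15 at 24 h without lactic acid, 0 at 72 h without it and 1 for its difference over time. Without all replicate 1 libraries the counts were 23 and 20, with 16 and 8 for TGF-β at 72 h with and without lactic acid, 2 for Treg against Tcon with lactic acid, 0 for lactic acid at 24 h with TGF-β, and 24 and 14 over time. With the replicate number as a block within each time point the counts were 31 and 28, 24 and 14 for TGF-β at 72 h with and without lactic acid, 17 and 2 for Treg against Tcon, 11 and 2 for lactic acid at 24 h with and without TGF-β, and 16 and 3 for lactic acid at 72 h in Treg and in Tcon cells with TGF-β. In the comparisons over time the block instead joined same-numbered libraries of both time points, which are not shown to pair. That block gave 5 for the TGF-β effect over time without lactic acid. Neither block moved any other count by over 1.5 times (19 for the TGF-β effect over time with lactic acid). For TGF-β at 72 h without lactic acid only 2 same-numbered pairs exist, and they are not shown to pair. The block in that count was estimated over all 72 h libraries, as in the other 72 h comparisons. Leaving out each library gave 1 to 22 and 1 to 8 at 24 h, 5 to 8 and 1 to 2 at 72 h, 0 to 1 for lactic acid at 24 h with TGF-β, 4 to 22 and 0 to 2 over time, 40 to 41 for 72 h against 24 h with both agents, with TGF-β alone and with lactic acid alone, 39 to 40 with neither, and 0 for the rest. Where a library of the 72 h group with neither agent was left out, its lone library was assumed to vary like the other groups. The 72 h count of 2 came without replicate 1 of the TGF-β group. The cause of these changes was not tested, apart from the smaller number of samples or genes that a setting itself brings.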
